A study of Mus musculus with 4 samples.

Results

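The genes examined here brake the cell cycle or mark the exit from it: Cdkn1a, Cdkn1b, Cdkn1c, Cdkn2b, Cdkn2c, Rb1, Btg1, Btg2, Ccng2 and Ndrg1. The list was set by gene name, with earlier results of these data known. Each gene was described by every called peak of open chromatin whose midpoint lay in the gene body or within 50 kb of it. All 10 genes had a peak, as did 18256 of the 21887 protein-coding genes placed. The peaks numbered 64 in the 0 h library and 69 in the 72 h library.

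The peaks come from ATAC-seq, in which the Tn5 transposase cuts open chromatin and the released fragments are sequenced. The cells were mouse jejunal epithelial organoids of the C57BL/6J strain, 30000 cells to a library. The 0 h organoids stayed in CVENR medium, which combines mEGF and R-spondin with CHIR99021 (it blocks GSK3 and so activates the Wnt pathway), valproic acid (which inhibits histone deacetylases) and Noggin, an antagonist of BMPs. The 72 h organoids kept mEGF and R-spondin, lost CHIR99021, valproic acid and Noggin for 72 h, and received 100 ng/mL recombinant BMP2. BMP2 and the loss of these 3 agents therefore cannot be told apart. Libraries of 24 h and 48 h were not used here. The study asked how accessibility differs with the time of BMP exposure. Each time point is 1 library, so no value below has a replicate error, no test across samples was possible, and the read depth is unknown.

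In the intestine, cells divide in the crypt and stop dividing as they move onto the villus. Progress from G1 into S phase needs cyclin D with CDK4 or CDK6 and cyclin E with CDK2, which phosphorylate the retinoblastoma protein and free E2F factors. The INK4 proteins (Cdkn2b, Cdkn2c) bind CDK4 and CDK6, the Cip/Kip proteins (Cdkn1a, Cdkn1b, Cdkn1c) bind cyclin-CDK complexes more broadly, and Rb1 encodes the retinoblastoma protein itself. Btg1 and Btg2 are antiproliferative proteins of the BTG/TOB family, Ccng2 is an atypical cyclin linked to arrest, and Ndrg1 is a differentiation- and stress-associated protein.

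The authors called peaks in each library at p-value thresholds of 1e-05 and 1e-10. A peak passing 1e-10 is called strict below, and one passing 1e-05 but not 1e-10 lenient. A peak is shared if a peak of the other library at 1e-05 overlapped it by at least 1 bp, and is otherwise 0 h only or 72 h only. The whole libraries held 35857 and 41343 peaks at 0 h and 72 h, of which 19910 and 25040 were strict. Strict peaks lay within 1 kb of a gene end at 10 of 10 epithelial marker genes at 0 h and at 9 of 10 at 72 h, Krt18 being the exception. They did so at none of 4 endothelial markers in either library, at 0 and 1 of 5 fibroblast and smooth muscle markers (Col1a1 at 72 h), and at 2 of 5 immune markers (Spi1 and Itgam) in both. Over all genes with a peak, 51.9% had such a strict peak in both libraries. A site open in fewer cells and a site less open in each cell cannot be told apart in bulk libraries.

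Most peaks of these genes were present in both libraries. At 0 h, 48 of 64 peaks were shared (75.0%, exact 95% interval for counting error 62.6 to 85.0), against 80.3% of all peaks within 50 kb of a protein-coding gene. At 72 h, 47 of 69 were shared (68.1%, 55.8 to 78.8), against 71.0%. The genes had 1.08 times as many peaks at 72 h as at 0 h, beside 1.15 times over the whole libraries, and 1.36 times as many strict peaks (49 against 36), beside 1.26 times. The median gene of the list had 7 peaks at 0 h and 6.5 at 72 h, and the median over all genes with a peak was 5 in both. These members are short, with a median length of 5.85 kb against 19.8 kb over all genes with a peak.

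At 1e-05 the direction of the peak counts was divided within the list. Cdkn2c, Rb1, Btg1, Btg2 and Ccng2 had more peaks at 72 h, which is 5 of 10 genes, beside 47.4% of all genes with a peak. Cdkn1b, Cdkn1c, Cdkn2b and Ndrg1 had fewer, 4 of 10 beside 29.0%, and Cdkn1a had 9 in each library. Strict peaks went mostly one way. They were more numerous at 72 h at 8 of 10 genes, beside 44.5% of all genes with a peak, and fewer at 2 (Cdkn2b and Ndrg1), beside 18.2%. Cdkn1b and Cdkn1c thus had fewer peaks but more strict ones at 72 h, 5 against 4 and 4 against 2. Their shared sites strict at 72 h alone lie nearest to other genes, Apold1 for Cdkn1b and Slc22a18 for Cdkn1c. The percentages were not adjusted for the number of peaks per gene. Its median was higher in the list (7 at 0 h, 6.5 at 72 h) than over all genes with a peak (5), so equal counts may be rarer in the list.

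**Figure D1:**
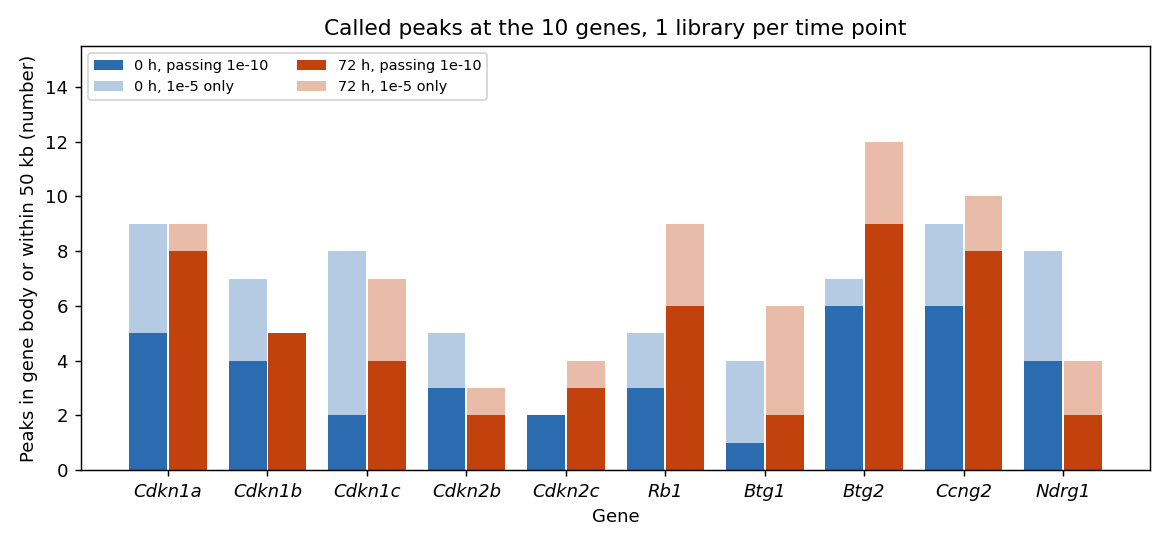
Number of called peaks (vertical axis) in the gene body or within 50 kb of each gene, 0 h in blue and 72 h in orange, with strict peaks in full colour and lenient ones in pale colour. Btg2 has the most peaks at 72 h (12), and Ndrg1 has 8 at 0 h and 4 at 72 h.

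Gene ends of these genes mostly carried a strict peak in both libraries. A strict peak had its midpoint within 1 kb of a gene end in both libraries at 9 of 10 genes, beside 51.9% of all genes with a peak. This count does not tell a start from the other end. The exception was Cdkn1a. RefSeq promoter entries, which give the strand and the start, matched 7 of the 10 genes (9 starts), and did not include Cdkn1c, Rb1 and Ndrg1. A strict peak covered a start in both libraries at 6 of these 7 genes, beside 42.3% of the 17492 genes with an entry. The seventh was Ccng2, whose start was covered by a strict peak at 0 h and a lenient one at 72 h, while a strict 72 h peak ended just upstream of the start, at 93267460 on chromosome 5.

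The sequences of 6 starts are shown because they carry the contrasts among these promoters: a start of Cdkn1a without a peak and one with it, 2 starts where the peak midpoint lay at the same place in both libraries (Cdkn1b and Cdkn2b), and 2 where it did not (Btg1 and Btg2). Each is the 250 bases before the RefSeq start (GRCm38.p6), 5′ to 3′ on the gene's strand. Capitals mark 4 motifs found by a search of both strands: the GC box GGGCGG, the CCAAT box CCAAT, the TATA motif TATAA and the forkhead motif GTAAACA.
Cdkn1a first start (chr17:29090729-29090978, strand +): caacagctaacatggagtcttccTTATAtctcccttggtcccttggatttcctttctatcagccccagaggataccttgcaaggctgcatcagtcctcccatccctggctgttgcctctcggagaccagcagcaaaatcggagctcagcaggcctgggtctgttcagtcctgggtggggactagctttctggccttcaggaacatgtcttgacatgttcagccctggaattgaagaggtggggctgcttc
Cdkn1a second start (chr17:29093519-29093768, strand +): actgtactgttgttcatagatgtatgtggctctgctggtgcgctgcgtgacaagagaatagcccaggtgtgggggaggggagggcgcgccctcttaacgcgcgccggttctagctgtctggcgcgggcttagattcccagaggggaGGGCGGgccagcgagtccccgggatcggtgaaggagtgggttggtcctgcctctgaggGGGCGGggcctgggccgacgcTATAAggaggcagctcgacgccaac
Cdkn1b (chr6:134920151-134920400, strand +): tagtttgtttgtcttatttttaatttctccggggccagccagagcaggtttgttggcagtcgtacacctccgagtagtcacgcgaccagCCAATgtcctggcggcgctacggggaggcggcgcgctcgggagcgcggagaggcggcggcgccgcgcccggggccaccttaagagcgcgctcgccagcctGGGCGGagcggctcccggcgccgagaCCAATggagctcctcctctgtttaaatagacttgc
Cdkn2b (chr4:89311033-89311282, strand -): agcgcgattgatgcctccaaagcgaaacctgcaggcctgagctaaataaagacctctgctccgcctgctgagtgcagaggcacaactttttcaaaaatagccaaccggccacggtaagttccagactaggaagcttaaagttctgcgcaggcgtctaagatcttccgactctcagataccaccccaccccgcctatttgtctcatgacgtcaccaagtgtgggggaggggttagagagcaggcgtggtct
Btg1 (chr10:96616751-96617000, strand +): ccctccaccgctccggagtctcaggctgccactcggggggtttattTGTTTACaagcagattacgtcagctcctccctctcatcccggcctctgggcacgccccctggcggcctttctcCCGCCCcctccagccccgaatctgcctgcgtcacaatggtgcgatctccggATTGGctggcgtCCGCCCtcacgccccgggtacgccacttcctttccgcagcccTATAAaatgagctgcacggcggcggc
Btg2 (chr1:134079156-134079405, strand -): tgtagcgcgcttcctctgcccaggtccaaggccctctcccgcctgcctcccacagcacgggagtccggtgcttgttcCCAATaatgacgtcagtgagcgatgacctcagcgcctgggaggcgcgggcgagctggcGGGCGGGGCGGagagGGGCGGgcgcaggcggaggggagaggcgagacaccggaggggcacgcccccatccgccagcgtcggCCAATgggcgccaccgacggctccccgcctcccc

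The first start of Cdkn1a had no peak in either library, and the nearest midpoints lay 2707 bp (0 h) and 2679 bp (72 h) downstream of it. The second start, at 29093769, was covered by a strict peak in both, with midpoints 83 and 111 bp upstream. Its 250 bases hold 2 GC boxes and a TATA motif and are 64.8% G or C. Those of the first start hold no GC box, a TATA motif on the opposite strand, and 54.0% G or C. Cdkn1b was covered downstream of its start, with midpoints 249 and 248 bp into the gene, and its 250 bases hold 2 CCAAT boxes and 1 GC box. Cdkn2b had midpoints 45 and 37 bp downstream and none of the 4 motifs.

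At Btg1 the midpoint nearest the start lay 73 bp upstream at 0 h and 241 bp upstream at 72 h. At 0 h a second, lenient peak of Btg1 stood 275 bp downstream of the start. The Btg1 sequence holds 2 GC boxes, 1 CCAAT box, a TATA motif and a forkhead motif. At Btg2 the midpoints lay 77 and 214 bp upstream, in a stretch with 3 GC boxes, of which 2 overlap by a base, and 2 CCAAT boxes. At Cdkn2c the midpoints lay 112 and 80 bp upstream, and at Ccng2 43 and 57 bp upstream. Over all shared peaks of the 10 genes, the median distance between the midpoints of the 2 libraries was 19.5 bp for 0 h peaks and 19 bp for 72 h peaks, beside 29 and 30 bp over the whole libraries. Distances over 100 bp were found for 7 of 48 and 6 of 47 of them, beside 16.6% and 17.4%.

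**Figure D2:**
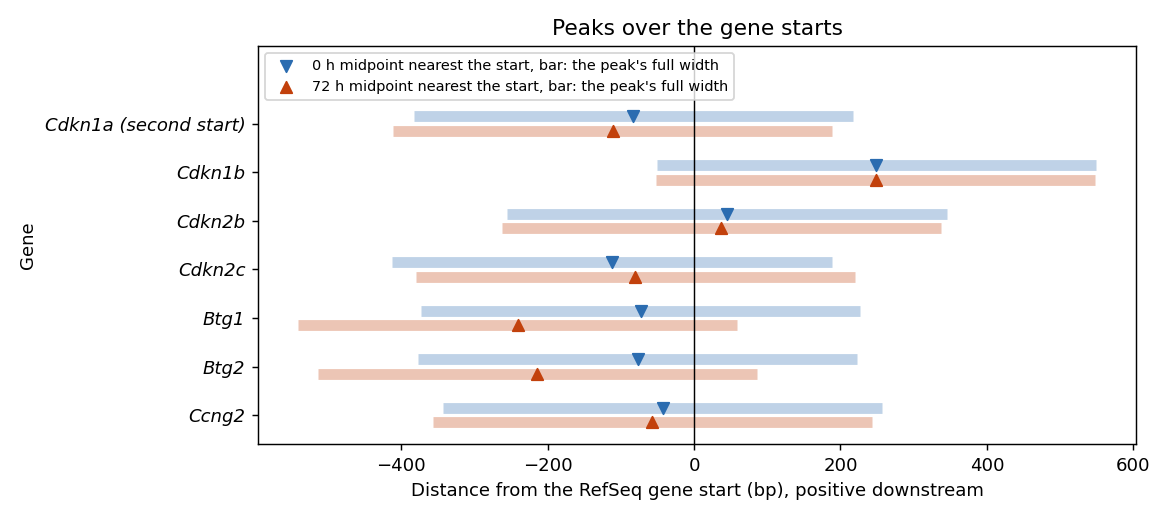
Position of the peak nearest each RefSeq start, in bp from the start (horizontal axis, positive downstream), with 0 h in blue and 72 h in orange; bars show the width of the peak. Midpoints nearly coincide at Cdkn1b and lie farther upstream at 72 h at Btg1 and Btg2.

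The GC box was in 6 of the 9 member promoters, beside 42.6% of the 21263 promoter entries of protein-coding genes. The CCAAT box was in 3 (35.4%), the TATA motif in 3 (20.3%), and the forkhead motif in Btg1 alone (2.62%). Of motifs not marked above, the SMAD motif GTCTG was in 5 of 9 (40.9%), counting both Cdkn1a starts, and the GC-rich motif GGCGCC linked to BMP-activated SMADs in 3 (12.3%): Btg2, Cdkn2c and Cdkn1b. The E2F motif (TTCCCGC or TTGGCGC, 7.20%) was in Cdkn2c, the CHR motif TTTGAA (14.5%) in Cdkn2b, and the hypoxia motif ACGTG (17.8%) at the second Cdkn2c start. The E-box CACGTG, which contains the hypoxia motif, and the AP-1 motif TGACTCA were in none of the 9 (6.63% and 4.06% of all). A match is a run of letters in this window and not a binding site.

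Cdkn1a encodes p21, a CDK inhibitor known as a target of p53. It had 9 peaks in each library, of which 5 were strict at 0 h and 8 at 72 h. Every 72 h peak of Cdkn1a was shared, and the only peak of 1 library was a lenient one at 0 h, 41.7 kb outside the gene (chromosome 17, 29048997 to 29049597). That peak lay 266 bp from the nearest 72 h peak. Sites of Cdkn1a at 2 places were lenient at 0 h and strict at 72 h. One was at 29078797 to 29079397, 11.9 kb upstream with Cdkn1a as the nearest gene, and the other at 29045983 to 29046583, 44.7 kb upstream, where Srsf3 is nearest. The peaks at 29122677 to 29123277 and 29123372 to 29123972, beyond the gene's far end, had Rab44 as the nearest gene and kept their thresholds. Of the 9 peaks, 4 at 0 h and 5 at 72 h had Cdkn1a as the nearest gene.

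Cdkn1b encodes p27, a CDK inhibitor that accumulates in resting cells. It had 7 peaks at 0 h, 4 of them strict, and 5 at 72 h, all strict. No peak was 72 h only. The single 0 h only peak was lenient and lay 5.66 kb upstream (chromosome 6, 134914445 to 134915045). A site 46.7 kb outside the gene, nearest to Apold1, was lenient at 0 h and strict at 72 h. A shared cluster 21.9 to 22.4 kb upstream held 3 midpoints at 0 h and 2 at 72 h, and Gpr19 is its nearest gene. The lower count at 72 h thus rests on 1 lenient peak and on 1 summit fewer in this cluster. The strict peak 3.29 kb beyond the far end of Cdkn1b was present in both libraries.

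Cdkn1c, an imprinted gene, encodes p57. It had 8 peaks at 0 h and 7 at 72 h, 2 and 4 of them strict. The strict peak at its upper boundary (chromosome 7, 143460863 to 143461463 at 0 h) was shared. It was the single peak in each library with Cdkn1c as the nearest gene, since the others lie nearer to Slc22a18 or Phlda2. Sites 12.6 and 15.0 kb outside the gene, both nearest to Slc22a18, were lenient at 0 h and strict at 72 h. Farther out, 0 h had 3 lenient peaks at 41.6, 41.8 and 44.9 kb and 72 h had 2 at 37.7 and 40.1 kb, with no overlap between the libraries. No peak of 1 library only was strict.

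The INK4 genes differed from each other. Cdkn2b, which encodes p15, lies beside Cdkn2a on chromosome 4 and had 5 peaks at 0 h (3 strict) and 3 at 72 h (2 strict). All 3 at 72 h were shared. A strict 0 h only peak stood 49.6 kb outside the gene (89360292 to 89360892) with Cdkn2b as the nearest gene, just inside the 50 kb limit. The other shared 0 h peaks of Cdkn2b, 11.2, 11.5 and 41.4 kb outside it, have Cdkn2a as the nearest gene. Cdkn2c, which encodes p18, had 2 peaks at 0 h, both strict and both shared, and 4 at 72 h. One of the 4 was a strict 72 h only peak 3.73 kb outside the gene (chromosome 4, 109656850 to 109657450), beyond its far end, with Cdkn2c nearest. Another was a lenient peak inside the gene at 109666061 to 109666661 that overlapped the 0 h start peak by 94 bp and so counts as shared.

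Rb1 is the longest of the 10 genes (133 kb). It had 5 peaks at 0 h (3 strict) and 9 at 72 h (6 strict), of which 3 in each library were shared. Its 3 strict shared peaks lay at the upper boundary, inside the gene at 73253327 to 73253927 on chromosome 14, and 49.6 kb below the lower boundary, where Rcbtb2 is nearest. At 72 h there were 6 peaks of that library only, 3 strict and 3 lenient. The strict peak at 73249945 to 73250545 lay inside Rb1, near the shared one. The other strict pair, 43.2 and 49.0 kb above the upper boundary, is nearest to Itm2b. The 2 peaks found at 0 h only were lenient.

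Btg1 had 4 peaks at 0 h and 6 at 72 h, and Btg1 was the nearest gene for all of them. Strict peaks numbered 1 and 2. Besides the start, a lenient peak inside the gene, 1.46 kb past the start, was shared. At 72 h a strict peak of that library only stood 42.0 kb upstream (chromosome 10, 96574729 to 96575329). Lenient 72 h only peaks lay 1.97, 30.4 and 31.3 kb beyond the far end, and a lenient 0 h only peak 23.9 kb beyond it.

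Btg2 had the largest number of strict 72 h only peaks among the 10 genes. It had 7 peaks at 0 h (6 strict) and 12 at 72 h (9 strict), with 6 in each library shared. The 4 strict 72 h only peaks on chromosome 1 were at 134054947 to 134055547, 134057113 to 134057713, 134065230 to 134065830 and 134086994 to 134087594. The first pair is nearest to Fmod, at 19.6 and 17.5 kb from Btg2. The last pair has Btg2 as the nearest gene, and its members lie 9.34 kb beyond its far end and 8.14 kb upstream of its start. A strict 0 h only peak stood beyond the far end as well, at 134067003 to 134067603, 7.56 kb from the gene. Its strict shared sites, 5 in number, passed 1e-10 in both libraries, and the remaining shared site was lenient in both. At least 4 strict 72 h only peaks were found at 1.07% of all genes with a peak (196 genes) and at least 3 at 3.31%, a level that Btg2 and Rb1 reached. Btg2 and Rb1 were singled out after their values were seen. These percentages were not adjusted for gene length, and Rb1 spans 133 kb against a median of 19.8 kb over all genes with a peak.

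Ccng2 had 9 peaks at 0 h (6 strict) and 10 at 72 h (8 strict), all with Ccng2 as the nearest gene. Strict 72 h only peaks stood 6.56 kb beyond its far end (chromosome 5, 93282487 to 93283087) and 46.2 kb beyond it (93322110 to 93322710). A site 1.70 kb upstream of the start was lenient at 0 h and strict at 72 h. Just downstream of the start, 2 lenient 0 h peaks at 93267937 to 93268537 and 93268221 to 93268821 had no 72 h counterpart. The first of them lay 120 bp from the nearest 72 h peak. A group of 4 strict 0 h peaks between 13.5 and 20.7 kb beyond the far end was matched by 4 strict 72 h peaks.

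Ndrg1 was the gene with the most peaks at 0 h only. It had 8 peaks at 0 h (4 strict) and 4 at 72 h (2 strict), and all 4 of the 72 h peaks were shared. A strict 0 h only peak stood 15.4 kb above the upper boundary (chromosome 15, 66984702 to 66985302). Lenient 0 h only peaks lay 28.7 and 29.1 kb above it and, nearest to Ccn4, 29.4 kb below the lower boundary. The site 11.0 kb above the boundary was strict at 0 h and lenient at 72 h. The strict peak at the boundary itself and the one 48.2 kb above it were shared.

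**Figure D3:**
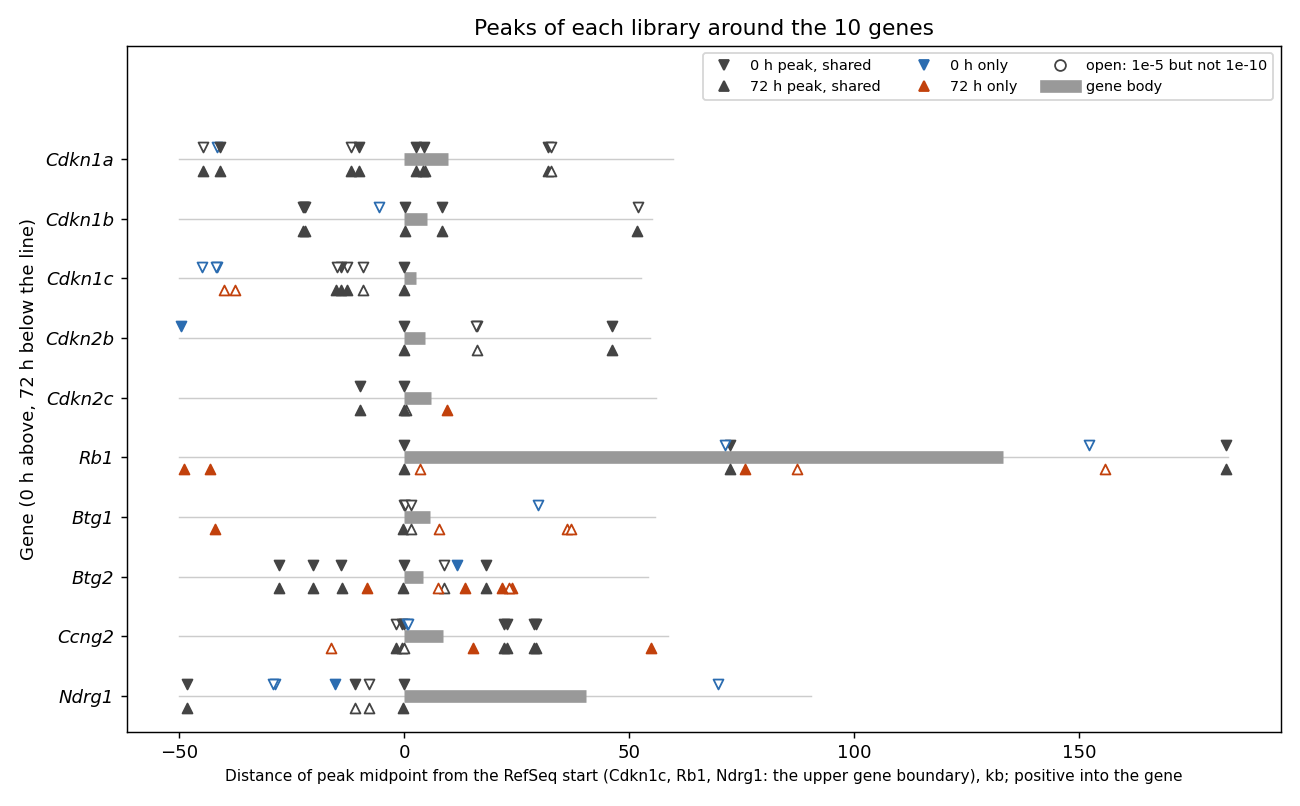
Midpoints of all peaks around each gene, in kb from the RefSeq start (for Cdkn1c, Rb1 and Ndrg1, from the upper boundary), positive into the gene; 0 h peaks point down above the line and 72 h peaks point up below it. Grey symbols are shared, blue are 0 h only, orange are 72 h only, and open symbols are lenient. Orange symbols gather at Rb1, Btg1, Btg2 and Ccng2, and none stands at Cdkn1a, Cdkn1b, Cdkn2b or Ndrg1.

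Strict 72 h only peaks were thus present at 5 of 10 genes (Cdkn2c, Rb1, Btg1, Btg2 and Ccng2), beside 33.3% of all genes with a peak. Strict 0 h only peaks were present at 3 (Cdkn2b, Btg2 and Ndrg1), beside 13.0%. At either threshold the counts were 6 of 10 for 72 h only, beside 64.4%, and 9 of 10 for 0 h only, beside 52.2%. Some peaks of 1 library only lay close to a peak of the other. With peaks within 1 kb counted as shared, 11 of 64 peaks were 0 h only (17.2%), against 16 of 64. The 72 h only peaks were then 20 of 69 (29.0%), against 22 of 69. No test over the list was made. Within 10 kb of the gene, strict 72 h only peaks remained at 4 genes (Cdkn2c, Rb1, Btg2 and Ccng2) and a strict 0 h only peak at Btg2. Of the 16065 genes with a peak in that window, 17.8% and 6.52% had one. Within 100 kb they were at 8 genes and 3 genes, beside 46.7% and 19.9% of the 19303 genes with a peak in that window.

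Of the 11 strict 72 h only peaks, 1 lay inside its listed gene, Rb1, and 7 had the listed gene as the nearest one. Their median distance outside the gene was 17.5 kb. Shared 72 h peaks were also mostly outside the listed gene (38 of 47). At short genes the 50 kb flanks make up most of the window, and the counts were not scaled by window length. The share inside genes over all strict 72 h only peaks was not computed. The 3 strict 0 h only peaks lay 7.56 to 49.6 kb outside. Within 1 kb of an end of any protein-coding gene lay 3 of the 22 peaks of 72 h only and 16 of the 47 shared 72 h peaks, beside 8.03% and 48.7% of all such peaks near genes. At 0 h the counts were 4 of 16 and 18 of 48, beside 20.0% and 48.6%.

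Merging overlapping peaks of both libraries gave 76 sites, and the interval of each class held its share of all 38826 sites within 50 kb of a protein-coding gene. The intervals treat sites as independent, although many lie at the same gene (12 at Btg2, 11 at Rb1). They are therefore no test of the list. Strict in both libraries were 29 sites (38.2%, 27.2 to 50.0), against 36.9%. Sites of 72 h only made up 27.6% (17.99 to 39.1) and sites of 0 h only 17.1% (9.43 to 27.5), against 26.9% and 15.8%. Shared sites that were strict at 72 h alone numbered 6, at 4 genes (Cdkn1a, Cdkn1b, Cdkn1c and Ccng2), and this class was present at 32.4% of all genes with a peak. After this merging of neighbouring peaks, shared sites strict at 0 h alone numbered 1, at Ndrg1, and this class was present at 23.9% of genes. The start of Ccng2, whose single peaks differ in the same direction as at Ndrg1, falls in a site that is strict in both libraries.

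**Figure D4:**
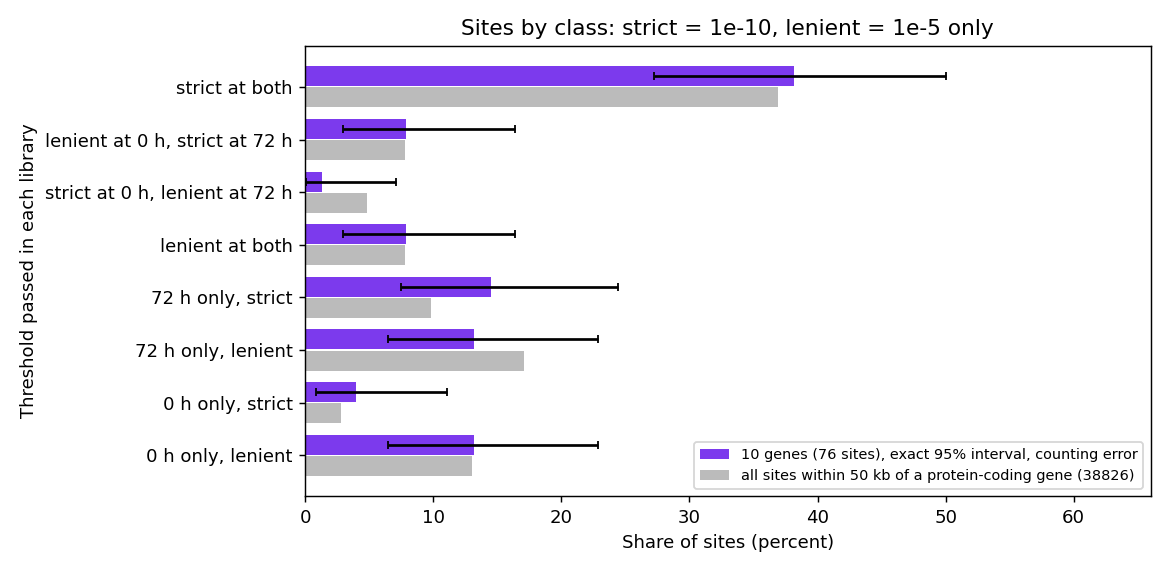
Share of sites in each class in percent, for the 76 sites of the 10 genes (purple, with exact 95% intervals for counting error) and for all 38826 sites near protein-coding genes (grey). Strict sites of both libraries are the largest class in both sets, and each grey bar ends within the interval of the purple one.

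A list of 35 other genes of the same pathway, also chosen with earlier results of these data known, was described in the same way. Strict 72 h only peaks were present at 12 of the 35, beside 33.3% of all genes with a peak. The 12 were Cdkn2d, Cdkn3, E2f2, E2f8, Foxo3, Gadd45b, Mdm2, Ndrg3, Rbl1, Rbl2, Tob1 and Tob2. Strict 0 h only peaks were present at 6 (Ccnd2, Ccnd3, Ccne1, Ndrg3, Rbl2 and Trp53), beside 13.0%. More peaks at 72 h than at 0 h were found at 20 of 35, beside 47.4%, and fewer at 9, beside 29.0%. Strict peaks were more numerous at 72 h at 13 of 35, beside 44.5%, and fewer at 8, beside 18.2%. The majority with more strict peaks among the 10 genes was thus not seen in this list. The retinoblastoma relative Rbl1 had 3 strict 72 h only peaks, none with Rbl1 as the nearest gene. Of the 15 such peaks in the list, 4 had the listed gene as the nearest: 1 at Tob1, a BTG/TOB family member, 2 inside Ndrg3 and 1 inside Foxo3, a forkhead factor.

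The 35 genes hold groups of different roles, which were formed after the values were seen and were not tested against each other. The 5 D- and E-type cyclin genes, whose products drive entry into S phase, had 44 peaks at 0 h and 36 at 72 h, of which 29 and 21 were strict. At 4 of these 5 there were fewer peaks at 72 h, as at 29.0% of all genes with a peak. None of the 5 had a strict 72 h only peak, which 33.3% of all genes had. Ccnd2 had a strict 0 h only peak 0.349 kb outside the gene, Ccnd3 had one inside it, and Ccne1 had one 20.6 kb outside. Such a peak was present at 13.0% of all genes with a peak. The pocket protein genes Rbl1 and Rbl2 together had 8 peaks at 0 h and 16 at 72 h, of which 8 and 10 were strict. The 3 CDK genes had 27 and 28 peaks, 16 and 14 of them strict. The 8 E2F genes had 53 and 59 (34 and 37 strict). Btg3, Tob1 and Tob2 had 26 and 28 (16 and 21 strict). The p53, Mdm2 and Gadd45 genes had 37 and 42 (26 and 25 strict), and the 3 other CDK inhibitor genes had 15 and 19 (11 and 14 strict). These 3 include Cdkn2a, whose 4 peaks at 0 h and 3 at 72 h are also counted at its neighbour Cdkn2b.

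**Figure D5:**
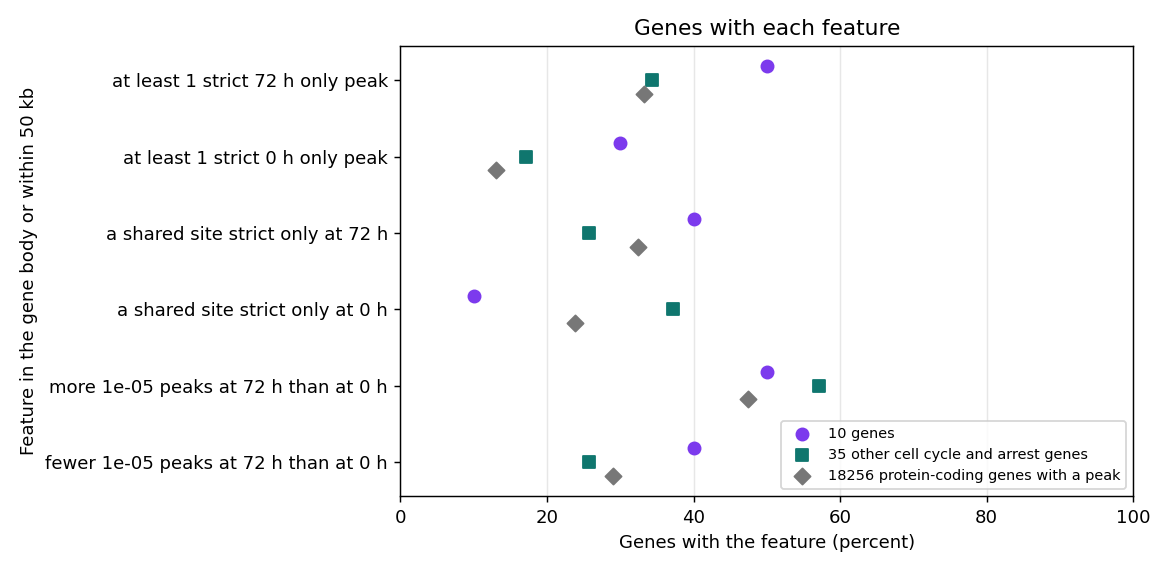
Percentage of genes (horizontal axis) with each feature in the gene body or within 50 kb, for the 10 genes (purple circles), the 35 other pathway genes (green squares) and the 18256 protein-coding genes with a peak (grey diamonds). Strict 72 h only peaks are at 5 of 10 genes, 12 of 35 and 33.3% of all.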

How the data were processed

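The tools named in the submitters' processing notes are MACS2 2.2.7.1, Bowtie2 2.4.1, bedtools 2.26.0, cutadapt 1.9.1, deepTools 3.5.4, SAMtools 1.3.1 and Picard 2.18.27, with the mm10 build. The setting of each step, such as a Tn5 shift or duplicate removal, was not given in the sources used here. As deposited, the lists have no header and give a chromosome, start, end and peak name, with no score, p-value, fold or count. Nearly all rows span 601 bp, and names show that peaks were called per library. Positions are printed 1-based.

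Genes were placed with a RefSeq table of GRCm38.p6 (mm10), protein-coding genes on chromosomes 1 to 19, X and Y only. A peak was assigned to every gene whose body, extended by 50 kb, held its midpoint, so 1 peak can belong to several genes. Strand and starts came from the RefSeq promoter table, and motifs were searched in the 250 bases before each start. Shares carry exact Clopper-Pearson 95% intervals for counting error, which treat peaks or sites as independent. With 1 library per time point no test was run. The 10 genes and the other lists were chosen with earlier results of these data known. Named genes are all 10 members, the pathway genes with a strict peak of 1 library only, and the nearest gene of single peaks. Scripts were tested on simulated peak lists and ran in Python 3.11.15 with SciPy 1.17.1, pandas 2.3.3, matplotlib 3.10.9 and numpy 2.4.6. Alternatives varied the overlap, window, gene assignment and threshold.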

Additional observations from a re-analysis of the deposited data

How the results depend on the processing

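At the 10 genes, the 0 h and 72 h peaks numbered 27 and 32 with a 10 kb window, 38 and 42 with each peak given to its nearest gene only, and 36 at 0 h with strict peaks alone. The share of 0 h only peaks was 11.1% (4 of 36) with strict peaks alone in both libraries, against 25.0% (16 of 64, of which 13 were lenient). With the same setting the share of 72 h only peaks was 34.7% (17 of 49), against 31.9%. Genes with a strict 0 h only peak numbered 1 with the 10 kb window and 9 when any peak of 1 library was counted, against 3. Genes with a strict 72 h only peak numbered 8 with the 100 kb window, against 5. These settings count fewer or more peaks by construction, which changes the counts but does not fix the shares. Of the 32 alternative values, 23, the 34.7% among them, stayed within 1.5 times the count or inside the counting interval. No paired analysis was possible because each time point is 1 library, and no library could be left out. The unknown read depth limits every statement that a peak was called in 1 library only.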
